A study of Mus musculus with 32 samples.

Results

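The genes described here are 39 nuclear genes whose enzymes oxidise pyruvate and fatty acids in the mitochondrion, out of 22337 genes in the expression tables. They were chosen by symbol, by a rule that names no measured value but was set with earlier results of these data known, and all 39 symbols were found: 5 genes bring pyruvate into the cycle, 16 encode the TCA cycle enzymes, 2 import fatty acids, 11 encode the enzymes of beta-oxidation, 3 pass its electrons on, and 2, Acat1 and Aldh6a1, act on acetoacetyl-CoA and on branched chains. The question asked of them is whether their transcripts differ between WT mice, 5xFAD mice and light-treated 5xFAD mice in hippocampus (HPC), in meninges and in meningeal lymphatic endothelial cells (mLECs).

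In the mitochondrial matrix, pyruvate is turned into acetyl-CoA by the pyruvate dehydrogenase complex or into oxaloacetate by pyruvate carboxylase, and the TCA cycle oxidises acetyl-CoA while it reduces carriers for the respiratory chain. Long-chain fatty acids enter as carnitine esters and are shortened to acetyl-CoA by beta-oxidation, whose acyl-CoA dehydrogenases hand electrons to the respiratory chain through the electron transfer flavoprotein. Neurons are known to rely on glucose and pyruvate, whereas fatty acid oxidation in the brain is attributed mostly to astrocytes.

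RNA-seq libraries were made from single mice: 12 of HPC, with 4 in each of the groups WT, untreated 5xFAD and light-treated 5xFAD, and 10 each of meninges and of sorted mLECs, with 4, 3 and 3 in these groups. All were males 6 months of age on a C57BL/6J background. 5xFAD mice carry mutated human transgenes of familial Alzheimer's disease under the regulatory sequence of Thy1, which drives expression in neurons, and WT mice were littermates without the transgenes. Light-treated mice received near-infrared light through the skull under isoflurane for several weeks, and the other mice underwent the same handling under indoor lighting. The mLECs were sorted from meninges as live cells without the leukocyte marker CD45 and with the endothelial marker CD31 and podoplanin, so they form a small gated fraction of the meninges and not a separate tissue. Whether an HPC and a meningeal library with the same number came from the same mouse is not given in the sources used here.

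The libraries held 13952825 to 23856476 counts each in HPC, 6601143 to 14708202 in meninges and 14231415 to 24207326 in mLECs, and the 39 genes together held between 0.334% and 0.693% of the counts. The biological coefficient of variation was 0.198 in HPC, 0.350 in meninges and 1.89 in mLECs. Neuronal markers summed to 1604 to 2175 FPKM (fragments per kilobase of transcript, scaled to library size) in HPC and to 91.2 to 475 FPKM in meninges, and meningeal fibroblast markers to 10.4 to 113 and 893 to 2055 FPKM. The meningeal libraries also held choroid plexus markers, with a summed FPKM of 5 markers between 15610 and 49160, and pineal markers, with a sum between 62.8 and 647. In HPC the choroid plexus sum was above 1000 in WT replicate 2 and in 5xFAD replicates 1 and 2, and between 37.0 and 690 in the other 9 libraries. Of the sorted libraries, WT replicates 2 and 4 had 7 lymphatic markers summing to 38 and 55.7 FPKM, against 1156 to 9718 FPKM in the other 8. In the other 8 most of the sum was Ccl21a, at 998 to 9356 FPKM, against 3.54 and 0 FPKM in WT replicates 2 and 4. Lyve1 was at 0 only in WT replicates 2 and 4. Flt4, at 34.4 and 30.3 FPKM, lay within the range of the others (3.83 to 81.6 FPKM). Prox1 was highest in WT replicate 4, at 5.71 FPKM, and 0 in replicate 2. Counts by direction, medians and the values of Cpt1a in mLECs are given with and without WT replicates 2 and 4, and the other values in mLECs with them only. Sums of 6 blood endothelial markers in mLECs were 1140 to 4477 (WT), 2127 to 3127 (untreated) and 1967 to 2965 FPKM (light-treated). Pdpn, the podoplanin gene, was at 0 in WT and in untreated 5xFAD replicates 2 and 4, and at 0.04 FPKM in light-treated replicate 3. Erythroid markers reached 12370 FPKM in untreated 5xFAD mLECs, with a median of 46.7 FPKM. Mural markers summed to 0.2 to 455 FPKM in WT, 3.78 to 611 in untreated and 13.3 to 62.9 in light-treated mLECs. Leukocyte markers summed to 0.19 to 1524, 19.5 to 514 and 268 to 397.5 FPKM in the same groups. The share of lymphatic cells was not tested.

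The RefSeq promoter windows of build GRCm38.p6, which run from 250 bases before to 50 bases after a gene's start, were found for 34 of the 39 genes. Acaa2, Acat1, Decr1, Idh3a and Sdhc had no entry. The GC box GGGCGG, read on both strands, was in 24 of 34 windows (70.6%), against 38.2% of 27025 genes. TATAAA was in 0 of 34, against 15.7% of all genes, and CCAAT was in 17 of 34 (50%), against 41.1%. The nuclear receptor motif AAGGTCA was in 3 of 34 (8.82%), those of Acadm, Ogdh and Sdhd, against 5.38%. These are counts of letters and not of bound sites, and the windows of Hadha and Hadhb, a pair of divergent genes whose RefSeq starts lie 273 bases apart on chromosome 5, share 228 bases.

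The windows before the start of the 4 genes that passed a test in the comparisons between groups of mice are shown here, each on the minus strand, read 5′ to 3′, and none reaching into the gene model. Capitals mark the GC box and the nuclear receptor motif, each found here on the opposite strand and so printed as its reverse complement. Acads, the short-chain acyl-CoA dehydrogenase (ENSMUSG00000029545, chromosome 5, 115110299 to 115119346), has the window chr5:115119347-115119596. Idh2, the NADP-dependent isocitrate dehydrogenase (ENSMUSG00000030541, chromosome 7, 80094846 to 80115392), has chr7:80115393-80115600. Suclg2, the GDP-specific subunit of succinyl-CoA synthetase (ENSMUSG00000061838, chromosome 6, 95473009 to 95718800), has chr6:95718847-95719096. Acadm, the medium-chain acyl-CoA dehydrogenase (ENSMUSG00000062908, chromosome 3, 153922357 to 153944632), has chr3:153944644-153944893.
Acads: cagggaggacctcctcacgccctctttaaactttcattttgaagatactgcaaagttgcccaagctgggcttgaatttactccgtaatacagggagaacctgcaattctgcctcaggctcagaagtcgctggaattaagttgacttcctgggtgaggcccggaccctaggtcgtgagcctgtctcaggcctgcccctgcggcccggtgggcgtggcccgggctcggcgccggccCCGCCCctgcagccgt
Idh2: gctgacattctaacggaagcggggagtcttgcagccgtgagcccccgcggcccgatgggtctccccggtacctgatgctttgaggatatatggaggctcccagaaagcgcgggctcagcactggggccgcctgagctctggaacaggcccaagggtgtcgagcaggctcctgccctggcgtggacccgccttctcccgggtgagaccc
Suclg2: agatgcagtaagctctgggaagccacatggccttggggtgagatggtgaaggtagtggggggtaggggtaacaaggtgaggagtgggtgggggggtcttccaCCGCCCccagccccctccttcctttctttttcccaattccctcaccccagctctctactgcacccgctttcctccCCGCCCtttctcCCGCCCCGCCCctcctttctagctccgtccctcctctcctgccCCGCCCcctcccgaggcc
Acadm: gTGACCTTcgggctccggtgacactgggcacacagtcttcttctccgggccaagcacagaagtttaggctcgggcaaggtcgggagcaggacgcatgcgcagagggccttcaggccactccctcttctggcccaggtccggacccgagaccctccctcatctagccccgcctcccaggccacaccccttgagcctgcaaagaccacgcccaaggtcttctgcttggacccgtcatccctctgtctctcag
The Suclg2 window holds 5 GC boxes and the Acads window 1. Neither motif is in the bases shown for Idh2, and the Acadm window holds the nuclear receptor motif 1 time. The full Idh2 window counted above does hold a GC box, in bases not shown here.

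In WT mice the tissues differed in which of these genes were high. Both genes of fatty acid import, 9 of 11 of beta-oxidation and 2 of 3 of electron transfer were higher in meninges than in HPC, and all 5 of pyruvate entry and 10 of 16 of the TCA cycle were lower. Of the 39 genes, 33 differed at an adjusted p below 0.05 (edgeR quasi-likelihood test), 17 higher and 16 lower in meninges. Among all 15132 genes tested 73% differed, 39.8% higher and 33.2% lower, against 84.6%, 43.6% and 41% of the 39 genes. The share of the 39 genes was above the background, and this gap was not tested. The median log2 fold change was 0.02 over the 39 genes and 0.12 over all genes tested. Because the tissues hold different cells, levels per cell and the number of cells of a type cannot be told apart in these bulk libraries, here or in the comparisons that follow.

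All 5 genes of pyruvate entry were lower in meninges past the threshold. Dlat, the acetyltransferase core of pyruvate dehydrogenase, was at 34.0, 31.3, 34.2 and 32.5 FPKM in the 4 WT HPC and at 15, 8.22, 8.50 and 8.36 FPKM in the 4 WT meninges, with a log2 fold change of -1.79 ± 0.22 (SE, adjusted p = 3.67e-07). Pcx, pyruvate carboxylase, which refills the cycle with oxaloacetate, was lower by a log2 fold change of -1.20, and Pdha1, the catalytic subunit of pyruvate dehydrogenase, averaged 100 ± 2.26 FPKM (SD, n = 4) in HPC and 56.6 ± 13.5 FPKM (SD, n = 4) in meninges.

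Of the 16 TCA cycle genes, 10 were lower and 3 were higher past the threshold, with a median log2 fold change of -0.41. Idh3a, the catalytic subunit of the NAD-dependent isocitrate dehydrogenase, was at 118, 113, 114 and 115 FPKM in WT HPC and at 62.1, 49.5, 42.8 and 23.1 FPKM in WT meninges, with a log2 fold change of -1.50 ± 0.21 (SE). Cs, citrate synthase, which condenses acetyl-CoA with oxaloacetate, averaged 113 ± 2.12 and 46.0 ± 15.7 FPKM (SD, n = 4 each), a log2 fold change of -1.37. No meningeal library reached the lowest HPC library for either gene. The 3 that were higher in meninges were Idh2 (0.84 on the log2 scale), Suclg2 (0.73) and Sdhc (0.48), a membrane anchor of succinate dehydrogenase. Ogdh, the first subunit of 2-oxoglutarate dehydrogenase, averaged 70.7 ± 4.64 and 73.8 ± 10.9 FPKM, a log2 fold change of 0.02 ± 0.16 (SE) that did not pass. Sdhd (-0.10) and Fh1, fumarase (-0.56, adjusted p = 0.0607), did not pass either.

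Fatty acid import and oxidation ran the other way. Both carnitine palmitoyltransferases were higher in meninges. Cpt2, the inner membrane enzyme, was at 3.86, 4.72, 3.57 and 2.6 FPKM in WT HPC and at 12.8, 20.2, 17.0 and 12.2 FPKM in WT meninges, with a log2 fold change of 1.88 ± 0.20 (SE, adjusted p = 6.88e-08). Cpt1a, the outer membrane enzyme that controls entry, had a log2 fold change of 1.39. Of the 11 beta-oxidation genes, 9 were higher past the threshold, with a median of 0.96. Acaa2, the thiolase that cleaves the shortened chain, was at 29.5, 43.0, 31.6 and 25.1 FPKM in HPC and at 110, 192, 124 and 108 FPKM in meninges, a log2 fold change of 1.98. Decr1, a reductase for unsaturated chains (1.69), and Eci1, an isomerase for them (1.44), were also among the 8 largest differences. Echs1, the hydratase (-0.19), and Hadhb, the thiolase subunit of the trifunctional protein (0.08), did not pass.

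Etfb, the beta subunit of the electron transfer flavoprotein, had the largest difference of the 39, with 92.0, 94.7, 103 and 84.8 FPKM in HPC and 221, 420, 478 and 483 FPKM in meninges, a log2 fold change of 2.02 ± 0.20 (SE, adjusted p = 1.54e-08). Etfa, its partner, was higher by 1.20, while Etfdh, the enzyme that passes their electrons to ubiquinone, differed by 0.08 and did not pass. Acat1, the acetoacetyl-CoA thiolase, was higher in meninges (0.50) and Aldh6a1, the dehydrogenase of the valine pathway, was lower (-1.60). The libraries of both tissues did not overlap for 16 genes that were higher in meninges and 12 that were lower, against 36.1% and 28.9% of all genes tested. With a threshold of 2-fold as well, 16 of the 39 genes and 51.4% of all genes passed.

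**Figure D1:**
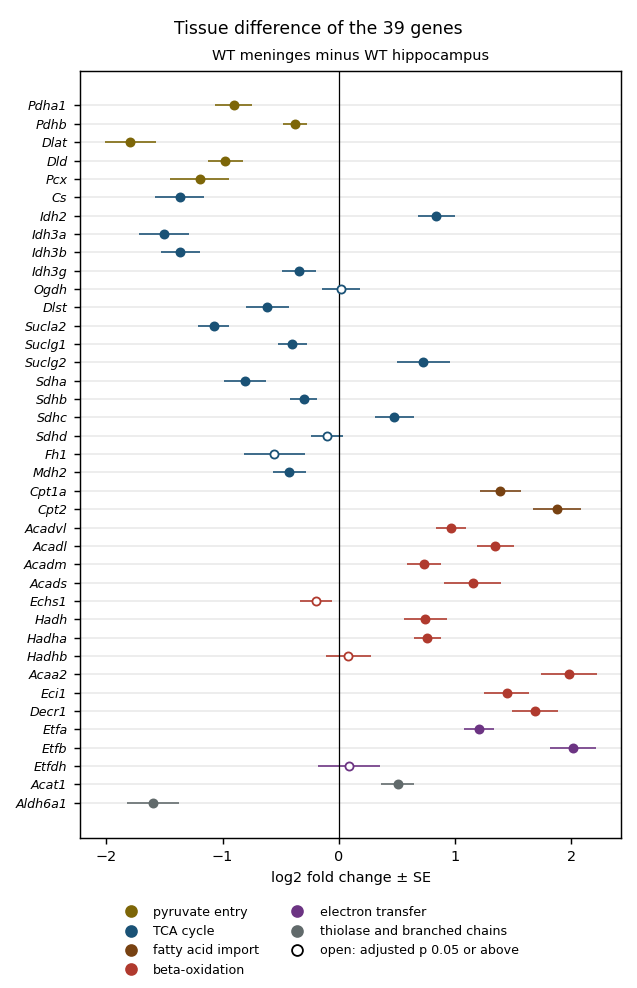
The x axis is the log2 fold change of WT meninges against WT HPC, with bars for the standard error, and each row is 1 of the 39 genes, coloured by role. Filled points passed an adjusted p of 0.05. All 5 pyruvate entry genes lie left of 0, and the 2 import genes and 10 of 11 beta-oxidation genes lie right of it.

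The summed FPKM of the 16 genes of fatty acid import, oxidation and electron transfer was 407 to 490 in the WT HPC and 969 to 1366 in the WT meninges, and that of the 16 TCA cycle genes was 2172 to 2346 and 1393 to 1957. Neither pair of ranges overlaps. In HPC the highest mean over all libraries was that of Mdh2, malate dehydrogenase, at 372 FPKM, and the lowest that of Cpt2, at 4.38 FPKM. In meninges the highest was Etfb, at 339 FPKM, and the lowest Pcx, at 8.94 FPKM. In HPC the remaining enzymes chosen as landmarks of their step had WT means of 176 ± 6.18 FPKM for Sdha, the flavoprotein of succinate dehydrogenase, 29.1 ± 2.22 for Acadvl, the very long-chain acyl-CoA dehydrogenase, 18.1 ± 2.09 for Hadha, the large subunit of the trifunctional protein, 14.8 ± 1.24 for Etfdh and 42.6 ± 1.49 for Acat1 (SD, n = 4 each). Their WT means in meninges were 106 ± 27.5, 59.8 ± 12.3, 32.3 ± 3.48, 16.5 ± 7.60 and 63.6 ± 10.5 FPKM in the same order. The choroid plexus and pineal RNA in the meningeal libraries, given above, is part of this tissue difference to an extent that was not tested.

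In HPC, untreated 5xFAD mice had higher Acads, Idh2 and Suclg2 than WT mice, and the remaining 36 genes did not pass the test. These 3 are 7.69% of the 39 genes, against 8.41% of the 12981 genes tested (6.39% higher and 2.03% lower). With edgeR the number of calls is thus near the background. DESeq2 called more of the 39 genes and of all genes, with counts given in the section on processing. By role, all 11 beta-oxidation genes and both import genes had a log2 fold change above 0, as did 52.1% of all genes tested, with medians of 0.22 and 0.33. All 5 pyruvate entry genes were below 0, with a median of -0.19, and 12 of the 16 TCA cycle genes were below 0, with a median of -0.08. Over all 39 genes 19 were above 0 and 20 below, with a median of -0.00 against 0.01 over all genes.

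Acads was at 6.66, 5.66, 5.85 and 5.87 FPKM in the 4 WT mice, at 9.38, 8.68, 9.09 and 9.01 FPKM in the 4 untreated 5xFAD mice and at 6.04, 6.65, 7.50 and 7.21 FPKM in the 4 light-treated mice. The untreated 5xFAD libraries lie above all other libraries, while WT and light-treated mice overlap. The log2 fold change of untreated 5xFAD over WT mice was 0.60 ± 0.12 (SE, adjusted p = 0.00588). Without the 3 libraries rich in choroid plexus markers its adjusted p was 0.0952.

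Idh2, which makes NADPH in the mitochondrion, was at 38.6, 42.5, 35.9 and 34.6 FPKM in WT mice, at 55.0, 47.5, 48.8 and 54.3 FPKM in untreated 5xFAD mice and at 35.7, 40.1, 42.3 and 40.6 FPKM in light-treated mice. Every untreated 5xFAD library was above every library of both other groups. The log2 fold change over WT mice was 0.45 ± 0.10 (SE, adjusted p = 0.00895), and it passed the threshold under all 17 alternative settings, with an adjusted p of 0.00019 to 0.0483.

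Suclg2 was at 9.41, 7.95, 6.12 and 6.96 FPKM in WT mice, at 10.8, 11.0, 17.2 and 12.2 FPKM in untreated 5xFAD mice and at 8.11, 8.86, 10.3 and 10.4 FPKM in light-treated mice. WT and untreated 5xFAD mice did not overlap, and 5xFAD replicate 3 was the highest of the 12. The log2 fold change over WT mice was 0.73 ± 0.17 (SE, adjusted p = 0.0159). It did not pass when 1 of 2 WT libraries was left out, with an adjusted p of 0.0631 without WT replicate 3 and 0.0586 without WT replicate 4. Sucla2, which encodes the ATP-specific subunit that replaces it in the same enzyme, had a log2 fold change of -0.20 (adjusted p = 0.153), and Suclg1, the subunit shared by both forms, had one of 0.02.

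The genes next in order did not pass in the main fit, though Decr1 and Acadvl each passed in 2 of 17 alternative settings. Decr1 was at 6.62, 5.77, 5.93 and 5.25 FPKM in WT mice and 7.09, 7.53, 10.8 and 7.84 FPKM in untreated 5xFAD mice, which do not overlap, with a log2 fold change of 0.51 ± 0.15 (SE, adjusted p = 0.0582). Acadvl was at 30.9, 30.9, 28.2 and 26.4 FPKM and at 36.0, 34.0, 32.6 and 37.1 FPKM, also without overlap, with a log2 fold change of 0.28 (adjusted p = 0.0747). Cpt2 had a log2 fold change of 0.46 (adjusted p = 0.101). On the side of pyruvate, Idh3a was at 96.8, 86.8, 95.5 and 110 FPKM in untreated 5xFAD mice, all below the WT values given above, with a log2 fold change of -0.23 (adjusted p = 0.103), and Pdha1 had one of -0.27 (adjusted p = 0.108). In all, 6 of the 39 genes were higher without overlap (background 8.75%) and 2 were lower, Dlat and Idh3a (background 5.79%). At an unadjusted p below 0.05, 8 genes were higher and 5 lower, against 13.6% and 10.2% of all genes.

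**Figure D2:**
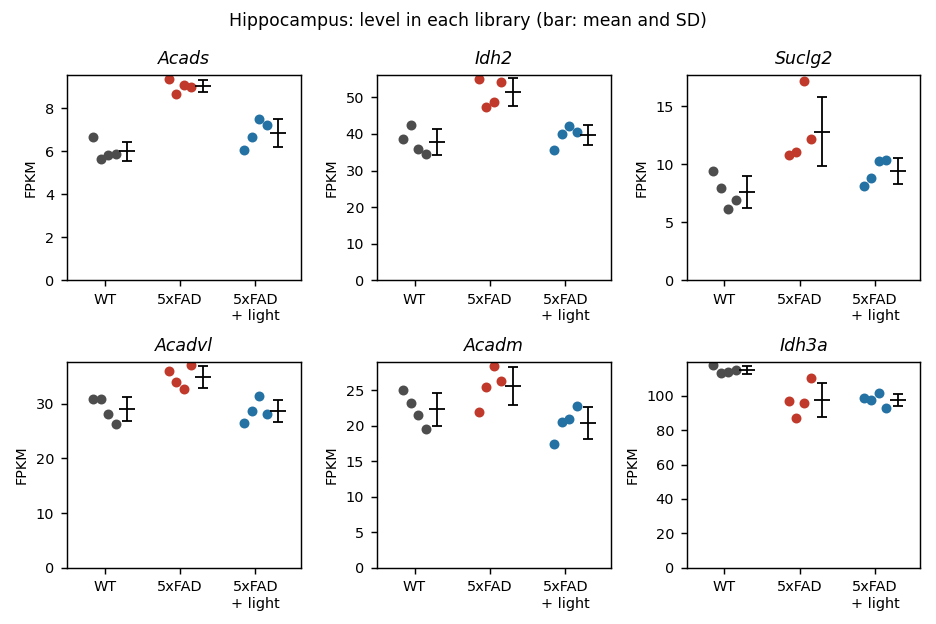
Each panel gives the FPKM (y axis, from 0) of 1 gene in the 4 WT, 4 untreated 5xFAD and 4 light-treated 5xFAD hippocampal libraries, 1 point per library, with the mean and SD beside them. For Acads, Idh2 and Suclg2 the untreated 5xFAD points lie above the WT points, and for Idh3a they lie below.

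Marker genes of other cells moved with this comparison. The summed FPKM of 6 astrocyte markers was 1564 to 1838 in WT, 2066 to 4054 in untreated 5xFAD and 2096 to 2702 in light-treated mice, that of 5 microglial markers was 181 to 205, 404 to 563 and 333 to 502, and that of 6 neuronal markers was 1946 to 2175, 1604 to 2038 and 1708 to 1843. Leukocyte markers summed to 14.3 to 28.4, 165 to 283 and 101 to 446 FPKM in the same groups, and choroid plexus markers to 37.0 to 2794, 206 to 3190 and 62.4 to 244 FPKM. Mural cell markers summed to 17.1 to 23.3, 22.6 to 30.4 and 16.5 to 20.5 FPKM, and meningeal fibroblast markers to 27.0 to 48.9, 28.0 to 113 and 10.4 to 28.1 FPKM, so mural markers in light-treated mice lay below every untreated 5xFAD library and fibroblast markers overlapped only at the ends of their ranges. The part of these markers in the results for HPC, between 5xFAD and WT mice or with light, was not tested. Leaving out the 3 libraries rich in choroid plexus markers left 2 genes called, Idh2 and Suclg2, and 11 of 11 beta-oxidation genes above 0 with a median of 0.30.

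Among pathway genes outside the 39, 0 of 27 other genes of pyruvate and TCA metabolism and 0 of 38 tested genes of fatty acid oxidation passed the test in untreated 5xFAD against WT HPC, with 13 and 21 of them above 0. At an unadjusted p below 0.05, 2 of the 27 were higher and 3 lower, and 6 of the 38 were higher and 4 lower. A further list held regulators together with related lipid and mitochondrial genes. Of its 14 genes tested, 2 passed, both higher and both of the related genes. Ucp2, a mitochondrial carrier of the inner membrane, had a log2 fold change of 1.41 (adjusted p = 0.000142) and Plin2, a coat protein of lipid droplets, one of 1.22 (adjusted p = 0.0129). All 13 mitochondrially encoded genes of the respiratory chain were above 0, with a median of 0.22 and none past the threshold. Their summed FPKM was 57100 to 71230 in WT and 44040 to 111500 in untreated 5xFAD mice, which overlap.

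Light-treated 5xFAD mice did not differ from untreated 5xFAD mice in HPC past the threshold for any of the 39 genes with edgeR, where 0.439% of all genes did, and DESeq2 called 3 of the 39 and 4.94% of all genes. Before adjustment, 8 genes were lower at a p below 0.05 (9.74% of all genes) and 0 higher (8.56%). All 11 beta-oxidation genes and both import genes had a log2 fold change below 0, with medians of -0.24 and -0.31, and the 16 TCA cycle genes were split 8 to 8 with a median of -0.00. Over the 39 genes 28 were below 0, while 47.5% of all genes were above it, with a median of -0.11 against -0.02 over all genes. Without light-treated replicate 1 the median was -0.05 and 4 genes had an unadjusted p below 0.05, and without untreated 5xFAD replicate 4 there were 14 such genes. All 11 beta-oxidation genes stayed below 0 under 17 alternative settings, with medians between -0.30 and -0.19. These settings include the fit without the libraries rich in choroid plexus markers. The same untreated 5xFAD libraries serve both this comparison and the one with WT mice, so opposite signs in them are not independent observations.

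The smallest p values were those of Idh2, with a log2 fold change of -0.39 ± 0.10 (SE, adjusted p = 0.0834) on the per-library levels given above, and of Acads, with -0.40 ± 0.12 (SE, adjusted p = 0.125). For both, the light-treated libraries lie below all untreated 5xFAD libraries. Acadvl was at 26.5, 28.7, 31.5 and 28.1 FPKM in light-treated mice, below each of the untreated 5xFAD mice, with a log2 fold change of -0.29 (adjusted p = 0.139). Idh2, Acads and Acadvl each passed in 1 of 17 alternative settings. Acadm was at 22, 25.5, 28.4 and 26.4 FPKM in untreated and at 17.4, 20.5, 20.9 and 22.8 FPKM in light-treated 5xFAD mice, which overlap, with a log2 fold change of -0.34 (adjusted p = 0.150). Cpt1a (-0.37, adjusted p = 0.18) and Suclg2 (-0.44, adjusted p = 0.190) followed. In 6 genes, Idh2, Suclg2, Acadvl, Acads, Etfa and Etfb, all lower, the groups did not overlap (background 3.98%), and in 0 the other way (background 3.66%).

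Of the pathway genes outside the 39, none of 27, 38, 14 and 13 tested in the 4 lists passed in this comparison. The smallest adjusted p values were those of Hibadh, a dehydrogenase of valine breakdown, with a log2 fold change of -0.33 (adjusted p = 0.128) and Ucp2, with -0.53 (adjusted p = 0.138). At an unadjusted p below 0.05, 2 genes of pyruvate and TCA metabolism and 3 of fatty acid oxidation were higher. Lower were 1 gene of each of these lists and 1 of the list of regulators and related genes.

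Compared with WT mice, light-treated 5xFAD mice had 0 of the 39 genes past the threshold in HPC with edgeR (background 3.58%, of which 3.03% higher and 0.555% lower), 0 higher and 3 lower at an unadjusted p below 0.05 (10.3% and 6.22% of all genes), and 1 with DESeq2, which called 6.73% of all genes. All 5 pyruvate entry genes and 13 of 16 TCA cycle genes were below 0, with medians of -0.20 and -0.07 (49.6% of all genes were above 0), while beta-oxidation was split 5 above and 6 below with a median of -0.01. Idh3a was at 98.6, 97.6, 101 and 92.7 FPKM in light-treated mice, all below WT, with a log2 fold change of -0.25 (adjusted p = 0.136). Pdha1 was at 103, 100, 101 and 97.7 FPKM in WT and at 83.0, 86.5, 87.6 and 80.1 FPKM in light-treated mice, also without overlap, with one of -0.25 (adjusted p = 0.214). Aldh6a1 had a log2 fold change of -0.34 (adjusted p = 0.176). With only the compared groups in the fit, Dlat, Pdha1 and Idh3a passed, as did 8.63% of all genes. The groups did not overlap in 4 genes, all lower, namely Pdha1, Dlat, Idh3a and Sucla2 (background 7.52%), and in 0 that were higher (background 7.33%). Ucp2 stayed higher than in WT mice, with a log2 fold change of 0.88 (adjusted p = 0.00726).

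In meninges, untreated 5xFAD and WT mice were not told apart by the test. Its power was low: with changes simulated in the light-treated group, 0% of 1.5-fold and 5.97% of 2-fold changes were recovered. None of the 39 genes passed the test, none had an unadjusted p below 0.05, and the smallest adjusted p was 0.991, while 0% of all 14318 genes passed with edgeR or DESeq2 and 2.06% and 1.81% were higher and lower at an unadjusted p below 0.05. The log2 fold change was below 0 for 34 of the 39 genes, including all 16 of the TCA cycle, with a median of -0.20 against -0.00 over all genes, of which 49.6% were above 0. Without WT replicate 1 the median was -0.12, and without WT replicate 2 it was -0.11. Idh3g, a regulatory subunit of isocitrate dehydrogenase, was at 182, 186, 159 and 123 FPKM in WT and 130, 126 and 117 FPKM in untreated 5xFAD meninges, which overlap, with a log2 fold change of -0.38 ± 0.22 (SE). Eci1, Cpt2 (-0.38 each) and Acaa2 (-0.41) had the next smallest p. The groups did not overlap for Pdhb, a subunit of pyruvate dehydrogenase, and Acads, both lower (background 2.65%), and for 0 that were higher (background 2.19%). The 13 mitochondrially encoded genes were all above 0, with a median of 0.47. Their summed FPKM was 36990 to 52050 in WT and 42820 to 94570 in untreated 5xFAD meninges, which overlap.

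In meninges, light-treated 5xFAD mice had higher values than untreated 5xFAD mice for 36 of the 39 genes, against 53% of all genes, with a median difference of 0.39 against 0.04 on the log2 scale, but none passed the threshold with edgeR (0.014% of all genes did). DESeq2 called 1, Acadm (adjusted p = 0.0474), and 0.552% of all genes. The 36 include all 5 genes of pyruvate entry, all 16 of the TCA cycle and both of import, with medians of 0.30, 0.36 and 0.75, and 9 of 11 of beta-oxidation, with a median of 0.40. The exceptions were Etfb (-0.28), Decr1 (-0.20) and Acads (-0.01). Under 14 alternative settings between 34 and 37 genes were above 0. At an unadjusted p below 0.05, 8 genes were higher and 0 lower, against 4.98% and 7.77% of all genes, and in 14 genes the light-treated libraries lay above all untreated ones (10.1% of all genes), with 0 in the other direction (10.7%). Without light-treated replicate 4, 5 genes had an unadjusted p below 0.05. As in HPC, the untreated 5xFAD libraries also serve the comparison with WT mice, so opposite signs in both are not independent observations.

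Acadm was at 30.8, 30.8 and 35.2 FPKM in the 3 untreated 5xFAD meninges, at 56.5, 60.4 and 62.3 FPKM in the 3 light-treated ones and at 42.9, 46.7, 30.1 and 36.2 FPKM in the 4 WT ones. The light-treated libraries were above all others, and WT overlapped with untreated 5xFAD mice. The log2 fold change of light-treated over untreated mice was 0.89 ± 0.23 (SE, adjusted p = 0.265).

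Cpt2 was at 14.8, 10.4 and 15.9 FPKM in untreated and 19.7, 24.6 and 23.2 FPKM in light-treated 5xFAD mice, with a log2 fold change of 1.01 ± 0.28 (SE, adjusted p = 0.265). These groups did not overlap, but WT replicate 2, at 20.2 FPKM, lay among the light-treated libraries. Aldh6a1 was at 8.01, 8.25 and 10.1 FPKM and at 12.4, 26.0 and 19.0 FPKM, with a log2 fold change of 1.12 ± 0.31 (SE, adjusted p = 0.265). Idh3a was at 35.9, 42.7 and 31.6 FPKM and at 55.3, 87.2 and 110 FPKM, also with a log2 fold change of 1.12 (adjusted p = 0.265). For both genes the light-treated values were spread over more than the range of the untreated ones. Idh3g (0.69, adjusted p = 0.292) and Acat1 (0.63, adjusted p = 0.328) came next.

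Not every landmark followed. Cs was at 31.1, 45.2 and 37.0 FPKM in untreated and 37.8, 69.0 and 39.1 FPKM in light-treated meninges, which overlap. Ogdh was at 59.0, 67.2 and 53.5 FPKM and at 52.0, 92.5 and 43.5 FPKM, with a log2 fold change of 0.01. Pcx was at 6.43, 8.25 and 8.40 FPKM and at 5.52, 15.3 and 5.61 FPKM. In these 3 genes light-treated replicate 2 stood above the other libraries of its group.

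**Figure D3:**
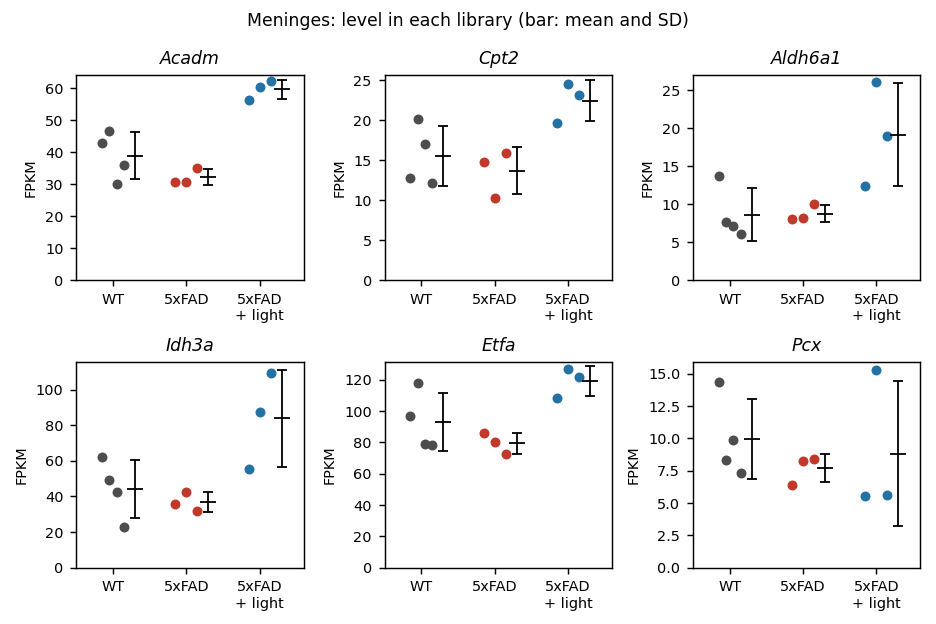
Each panel gives the FPKM (y axis, from 0) of 1 gene in the 4 WT, 3 untreated 5xFAD and 3 light-treated 5xFAD meningeal libraries, 1 point per library, with the mean and SD beside them. Light-treated points lie above the untreated 5xFAD points for Acadm, Cpt2, Aldh6a1, Idh3a and Etfa, and for Pcx the groups overlap.

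The genes of the pathway outside the 39 were counted in the same way in this comparison. Of these, 24 of 27 other genes of pyruvate and TCA metabolism were above 0 (median 0.44), as were 33 of 41 of fatty acid oxidation (median 0.33). The counts were 6 of 17 regulators and related genes (median -0.11) and 5 of 13 mitochondrially encoded genes (median -0.33). None passed the threshold. Pdk1, a kinase that inhibits pyruvate dehydrogenase, had a log2 fold change of 0.95 (adjusted p = 0.265) and Pcca, a subunit of propionyl-CoA carboxylase, one of 0.76 (adjusted p = 0.269). Slc27a4, a fatty acid transport protein, had one of -1.03 (adjusted p = 0.265) and Acacb, the acetyl-CoA carboxylase whose product inhibits fatty acid import, one of -1.11 (adjusted p = 0.269). Marker sums of the other cells differed between libraries as well: in untreated and light-treated 5xFAD meninges, pineal markers summed to 62.8 to 378 and 230 to 647 FPKM, skeletal muscle markers to 4.21 to 19.8 and 8.41 to 27.3 FPKM, meningeal fibroblast markers to 893 to 2055 and 1343 to 2049 FPKM, and erythroid markers to 6474 to 18230 and 6461 to 48540 FPKM. Lymphatic endothelial markers summed to 140 to 197 and 181 to 268 FPKM, adipocyte markers to 45.2 to 54.7 and 46.9 to 91.4 FPKM, microglial markers to 95.6 to 141 and 124 to 175 FPKM, and choroid plexus markers to 25980 to 33470 and 28720 to 49160 FPKM. All of these ranges overlap, and the median of each of these sums was higher with light. Leukocyte and mural medians were lower, at 3505 and 374 FPKM in untreated and 3263 and 296 FPKM in light-treated meninges. The part of the markers in the result was not tested.

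Against WT mice, light-treated 5xFAD meninges had 31 of the 39 genes above 0 (51% of all genes), with a median of 0.26 against 0.01 over all genes, and none past the threshold with edgeR (background 0.014%), while DESeq2 called Aldh6a1 (adjusted p = 0.0265) and 3.05% of all genes. Before adjustment, 7 genes were higher at a p below 0.05 (8% of all genes) and 0 lower (8.19%). Single libraries moved these values: without WT replicate 4 the median was 0.13 and 3 genes had such a p, without WT replicate 3 there were 4, and without light-treated replicate 4 there were 2. Aldh6a1 was at 13.7, 7.74, 7.10 and 6.07 FPKM in WT mice, and WT replicate 1 overlapped with the light-treated libraries, for a log2 fold change of 1.12 (adjusted p = 0.122). Acadm had a log2 fold change of 0.63 (adjusted p = 0.179) and was the only gene of the 39 whose light-treated libraries all lay above WT (background 6.99%), with 0 below (5.34%). Idh3a (0.87, adjusted p = 0.184), Dld, the dihydrolipoamide dehydrogenase shared by the 2-oxoacid complexes (0.56, adjusted p = 0.239), Cpt2 (0.63, adjusted p = 0.246) and Acat1 (0.55, adjusted p = 0.252) did not pass.

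**Figure D4:**
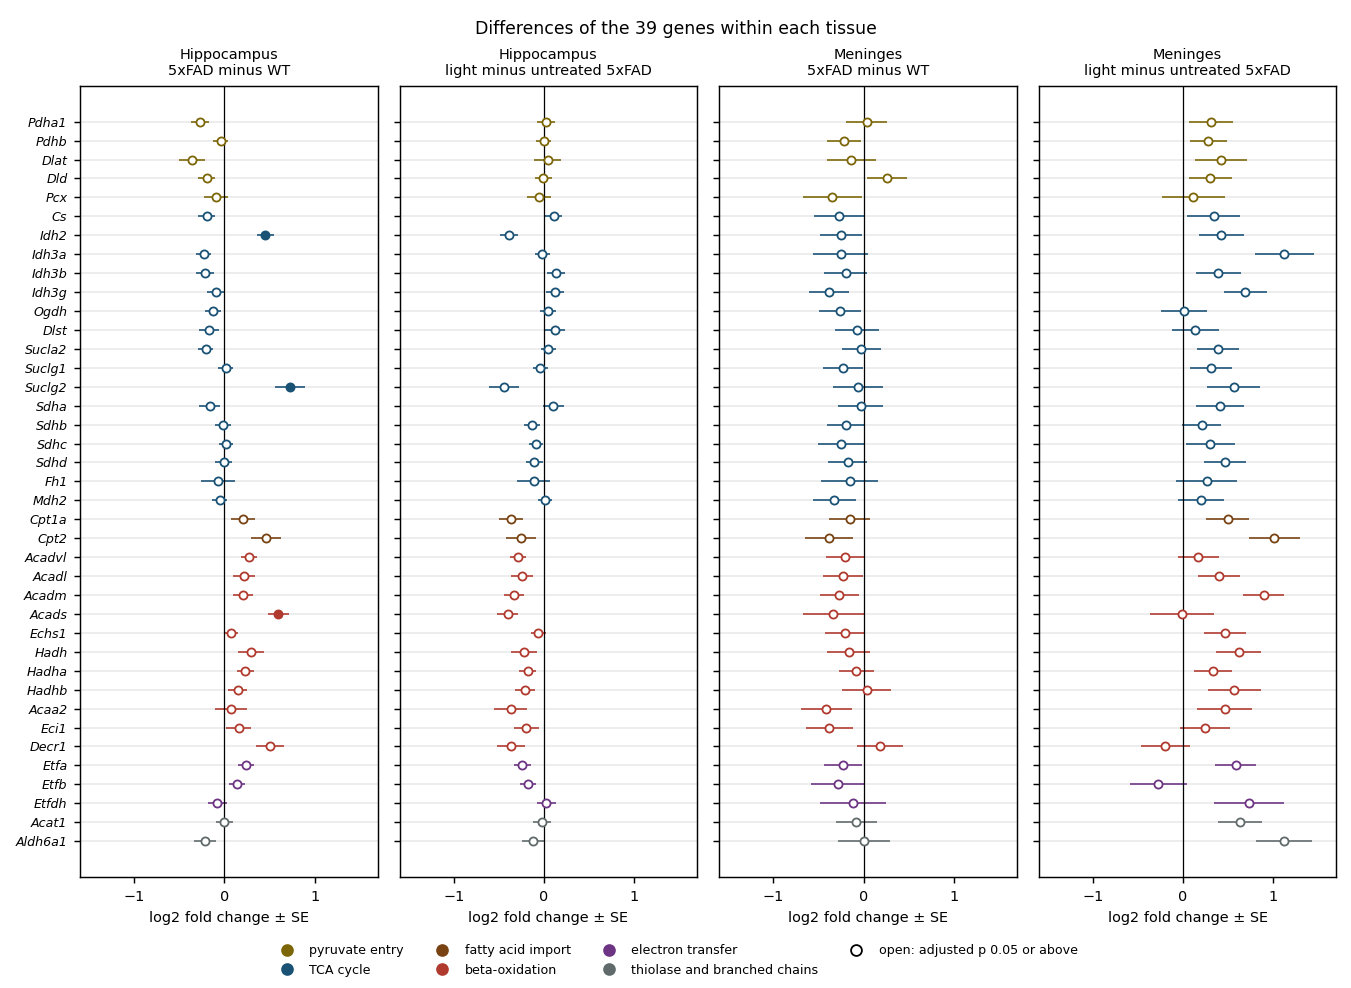
The x axis of each panel is the log2 fold change with bars for the standard error, and each row is 1 of the 39 genes, coloured by role, with filled points at an adjusted p below 0.05. From left to right the panels are untreated 5xFAD against WT and light-treated against untreated 5xFAD in HPC, then the same in meninges. The 3 filled points are Acads, Idh2 and Suclg2 in the first panel, and in the last panel 36 of 39 points lie right of 0.

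Whether the light difference itself differed between meninges and HPC was tested as an interaction over the 22 libraries of both tissues, a fit that takes all libraries as independent although some may come from the same mouse. Acadm passed, with an interaction of 1.20 ± 0.22 on the log2 scale (SE, adjusted p = 0.0194), beside log2 fold changes of -0.34 in HPC and 0.89 in meninges from the separate fits of each tissue. It was the only gene of the 39 to pass, 2.56% against 1.05% of the 15132 genes tested. The interaction was above 0 for 36 of the 39 genes, against 53.7% of all genes, with a median of 0.43 against 0.06. At an unadjusted p below 0.05, 18 genes were above 0 (8.91% of all genes) and 0 below (10.9%), 8 of the 18 being beta-oxidation genes and 5 TCA cycle genes.

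Acadm passed in 18 of 23 alternative settings, with an interaction between 1.14 and 1.30. It did not pass with the replicate number as a block (adjusted p = 0.0539), or when libraries of a group with the same number were taken as 1 mouse across tissues (1.18, adjusted p = 0.0633, 0 of the 39 genes called). Its adjusted p was also 0.0562 without light-treated HPC replicate 1, 0.0505 without untreated 5xFAD meninges replicate 1 and 0.0572 without untreated 5xFAD meninges replicate 2. The next genes did not pass: Cpt2 had an interaction of 1.24 ± 0.30 (SE, adjusted p = 0.0514), Etfa 0.80 (adjusted p = 0.0520), Aldh6a1 1.22 (adjusted p = 0.0697), Idh3a 1.11 (adjusted p = 0.0825) and Idh2 0.79 (adjusted p = 0.0908). Of the other pathway genes, Slc27a4 passed with an interaction of -1.18 (adjusted p = 0.0435).

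For untreated 5xFAD against WT mice the interaction passed for none of the 39 genes with edgeR or DESeq2 (background 1.72%), and 31 were below 0, with a median of -0.27 against -0.11 over all genes. Before adjustment, 7 were lower at a p below 0.05 (9.56% of all genes) and 0 higher (3.13%). Idh2 had an interaction of -0.71 ± 0.23 (SE, adjusted p = 0.140), Cpt2 one of -0.85 (adjusted p = 0.177), Acads one of -0.94 (adjusted p = 0.224), Acadvl one of -0.49 (adjusted p = 0.262), Etfa one of -0.48 (adjusted p = 0.272) and Suclg2 one of -0.79 (adjusted p = 0.313). Without untreated 5xFAD meninges replicate 4, Suclg2 passed, with -1.25 (adjusted p = 0.0284). Ucp2, outside the 39 genes, had an interaction of -2.09 (adjusted p = 0.00246), with log2 fold changes of 1.41 in HPC and -0.66 in meninges.

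In sorted mLECs the spread between libraries of 1 group was larger than in the tissues. The median coefficient of variation of the 39 genes was 93.3% in WT, 68.0% in untreated and 68.0% in light-treated 5xFAD mice, against 7.43% to 10.6% in HPC and 17.0% to 20.7% in meninges. All 39 genes were above 0 in every HPC and meningeal library, whereas in mLECs 22 were above 0 in all 10 libraries and 17 were at 0 in at least 1. Between 2 and 11 of the 39 genes had no counts in a sorted library. Dlat was at 0 in 5 libraries, Pcx in 6, Acads in 7 and Cpt2 in 9, and Pcx, Cpt2 and Acads did not pass the filter on low values, which leaves 36 genes tested.

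Mdh2 had the highest mean in mLECs, at 593 FPKM, with 387, 420, 807 and 343 FPKM in WT, 808, 767 and 478 FPKM in untreated and 1017, 323 and 575 FPKM in light-treated mice, and Pcx the lowest, at 0.520 FPKM. Sdhb, the iron-sulfur subunit of succinate dehydrogenase, was also detected throughout, between 124 and 459 FPKM. Other landmark enzymes were at or near 0 in single libraries. Cs was at 64.4, 0, 0.02 and 18.0 FPKM in the 4 WT libraries. Idh3a was at 179, 0.07, 35.4 and 44.6 FPKM in WT, 44.1, 45.9 and 0.03 FPKM in untreated and 43.4, 91.4 and 34.6 FPKM in light-treated mice. The means of Sdha were 169 ± 88.4, 178 ± 56.3 and 90.6 ± 63.9 FPKM (SD, n = 4, 3 and 3) in the same groups, and those of Pdha1 were 62.1 ± 69.4, 25.6 ± 22.4 and 45.4 ± 12.3 FPKM. For Acadvl they were 48.8 ± 46.5, 63.1 ± 36.6 and 77.5 ± 42.2 FPKM, and for Acadm 16.4 ± 14.6, 56.4 ± 35.5 and 16.1 ± 10.8 FPKM.

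The rest of the landmarks in mLECs had means of 38.3 ± 34.6, 17.6 ± 15.3 and 16.8 ± 16.9 FPKM for Ogdh, 25.7 ± 26.5, 13.4 ± 12.5 and 20 ± 18.1 FPKM for Hadha, 25.4 ± 21.8, 15.8 ± 27.4 and 9.86 ± 12.7 FPKM for Etfdh, and 36.6 ± 12.2, 27.7 ± 24.8 and 46.2 ± 31.9 FPKM for Acat1. In each of these genes the groups overlap. The mLEC values are in a table apart from that of the tissues and were not tested against them. These levels are therefore set beside those of HPC and meninges as a description only.

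**Figure D5:**
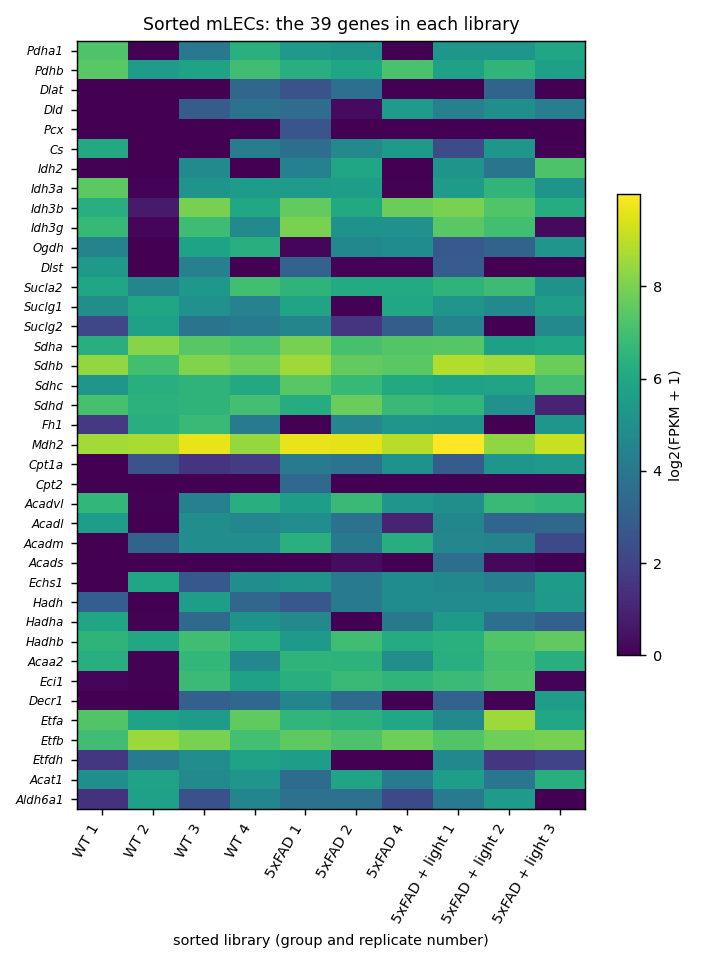
Each column is 1 sorted mLEC library, by group and replicate number, each row 1 of the 39 genes, and the colour is log2(FPKM + 1), from dark at 0 to yellow. Dark cells mark genes with few or no counts: Cpt2 is dark in 9 of 10 columns, and the rows of Sdhb and Mdh2 are bright in all.

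None of the 36 genes tested in mLECs passed the threshold in any of the 3 comparisons with edgeR or DESeq2, and none had an unadjusted p below 0.05. The backgrounds were 0% of 8188 genes for untreated 5xFAD against WT and for light-treated against untreated mice, and 0.0122% for light-treated mice against WT. Counts were near an even split for untreated 5xFAD against WT (17 above 0 and 19 below, median -0.02 against -0.04 over all genes) and for light-treated mice against WT (19 and 17, median 0.12 against -0.05), and 23 of 36 were above 0 for light-treated against untreated mice (median 0.21 against 0.03). At a spread between libraries of this size, given above, differences of the sizes seen in HPC and meninges were not detectable in mLECs.

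The member with the smallest p in mLECs was Cpt1a, the gate of fatty acid import. It was at 0.01, 4.84, 1.85 and 2.41 FPKM in WT, at 15.7, 13.1 and 34.0 FPKM in untreated and at 6.43, 37.4 and 39.9 FPKM in light-treated 5xFAD mice. Both 5xFAD groups lay above WT and overlapped with each other. The log2 fold change was 3.25 ± 1.75 (SE, adjusted p = 1) for untreated 5xFAD and 3.74 ± 1.78 (SE, adjusted p = 0.685) for light-treated mice against WT, and these comparisons share the WT libraries. Without the WT libraries poor in lymphatic markers these were 5.86 (adjusted p = 1) and 6.35 (adjusted p = 0.760), on 2 WT libraries. It was the only gene without overlap in the first (background 5.01%), and Cpt1a and Dld were the genes without overlap in the second (background 3.64%).

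The other genes with the smallest p in mLECs did not pass, and most had a standard error near or above the size of the difference. Against WT, untreated mice had log2 fold changes of 1.75 ± 1.94 for Acadm, -1.51 ± 1.81 for Pdha1, -1.50 ± 1.83 for Ogdh, -2.79 ± 3.48 for Dlst, the succinyltransferase of 2-oxoglutarate dehydrogenase, and 1.95 ± 2.46 for Dld (SE). Light-treated against untreated mice had -0.98 ± 0.57 for Sdha, 0.92 ± 0.67 for Hadhb, -1.56 ± 1.24 for Sdhd, 1.10 ± 0.99 for Etfa, 0.58 ± 0.57 for Sdhb and -1.77 ± 2.13 for Acadm (SE). Against WT, light-treated mice had -1.08 ± 0.54 for Sdha, -1.50 ± 1.18 for Sdhd, 3.16 ± 2.76 for Idh2, 2.31 ± 2.49 for Dld and 0.55 ± 0.61 for Hadhb (SE). Without the WT libraries poor in lymphatic markers, 15 genes were above 0 and 21 below for untreated 5xFAD against WT (median -0.13 against 0.21 over all genes), 21 above and 15 below for light-treated mice against WT (median 0.06 against 0.20), and none passed.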

How the data were processed

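The 39 genes, their role groups and the lists of other pathway genes and markers were chosen with earlier results of these data known. The authors made Smart-seq2 libraries, filtered reads with fastp and quantified genes with RSEM per the paper's methods, while the submitters' processing notes also name Trimmomatic, HISAT2, StringTie, DESeq2 and build mm10. They deposited expected counts and FPKM values per gene and library, in 1 table for HPC and meninges and 1 for mLECs. All columns of per-sample values were used.

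Expected counts were rounded, scaled by TMM and tested with edgeR 4.0.16 (quasi-likelihood, R 4.3.3), with the 3 groups of a tissue in 1 fit, and all 6 groups of HPC and meninges in 1 fit for comparisons across tissues. The filter kept genes that reached an FPKM of 1 in 3 or more libraries, 12981 in HPC, 14318 in meninges, 8188 in mLECs and 15132 across tissues. Called means an adjusted p below 0.05, with Benjamini-Hochberg adjustment over every gene tested. The SE of a log2 fold change is its absolute value divided by the square root of the F statistic of the edgeR test. Groups do not overlap when every FPKM of 1 group exceeds every FPKM of the other. DESeq2 1.42.0 and limma 3.58.1 on log2(FPKM + 1) or log2(FPKM + 0.1) served as alternatives, beside other scaling and filters, a replicate block and leaving out each replicate. The steps were tested on simulated data. Of simulated 2-fold changes, 73.1% were recovered in HPC, 5.97% in meninges, 1.49% in mLECs and 10.4% in the interaction. A gene that was not called is therefore not shown to be unchanged. No pair of libraries in a group agreed within counting error.

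Genes were named by rule: 12 landmark enzymes in every tissue, every called gene (of more than 8, the 8 largest), up to 6 with the smallest p per comparison, those highest and lowest in each tissue, and those not tested. Other pathway genes were named when called or among the 5 smallest p of their list. A few more (Sdhb in mLECs, Dlat, Etfa, Suclg1 and Sucla2 in HPC, Etfb, Decr1 and Acads in meninges, Hadha and Hadhb promoters, genes without overlap, and genes not called between tissues) were chosen after their values were seen. Positions were taken from GENCODE vM21, build GRCm38.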

Additional observations from a re-analysis of the deposited data

Results flagged for a closer look

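Over the groups of 4 libraries (3 in HPC, WT meninges and WT mLECs), 16 of 192 gene levels had 1 library whose gap to the nearest other was larger than Dixon's limit, where chance gives about 1 in 20, or 9.6. All 39 genes were examined, and groups wholly under 1 FPKM were left out. In WT HPC these were Pdhb at 141 FPKM in replicate 4 (135.9 to 136.3 in the others), Ogdh at 63.8 in replicate 3 (72.3 to 73.9), Suclg1 at 124 in replicate 1 (133.1 to 134.4) and Hadh at 11.8 in replicate 4 (16.0 to 16.8). In untreated 5xFAD HPC, Etfb was at 112 FPKM in replicate 2 (97.7 to 100.2). In light-treated HPC, replicate 1 was low for Dlat at 24.9 FPKM (26.6 to 27.0), Hadhb at 52.4 (62.6 to 64.6) and Aldh6a1 at 16.5 (21.3 to 21.7), replicate 4 was low for Sucla2 at 81.5 (87.2 to 87.3), and replicate 3 was high for Sdhc at 107 (99.3 to 99.5). In WT meninges, Dlat was at 15 FPKM in replicate 1 (8.22 to 8.50), and replicate 2 was high for Suclg1 at 127 (95.6 to 99.5) and Acads at 16.3 (13.2 to 13.5). In WT mLECs, Dlat was at 8.75 FPKM in replicate 4 (0 in the others), and replicate 3 was high for Idh2 at 26.6 (0 to 0.03) and Mdh2 at 807 (343 to 420).

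A difference between tissues was found by the interaction test (edgeR) for 3 genes. Light-treated minus untreated 5xFAD differed between meninges and HPC by 1.20 on the log2 scale for Acadm (adjusted p = 0.0194) and by -1.18 for Slc27a4 (adjusted p = 0.0435). Untreated 5xFAD minus WT differed by -2.09 for Ucp2 (adjusted p = 0.00246).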

How the results depend on the processing

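Of the alternative counts of called genes, 198 lay within 1.5 times the reported count, 13 were higher and 7 lower. In HPC, untreated 5xFAD against WT gave 3 calls, 0 with a 2-fold threshold, 8 with DESeq2 (13.3% of all genes) and 2 to 5 when 1 replicate was left out, with 5 without 5xFAD replicate 4. Light-treated against untreated 5xFAD gave 3 calls with DESeq2 (4.94%), and light-treated against WT gave 3 with the compared groups alone (8.63%) and 1 with DESeq2 (6.73%). In meninges DESeq2 gave 1 call for light-treated against untreated 5xFAD (0.552%) and 1 against WT (3.05%). WT meninges against WT HPC gave 16 calls with a 2-fold threshold. The interaction for untreated 5xFAD gave 0 to 1 calls when 1 replicate was left out. The interaction for light gave 1 call, 2 with RLE scaling, 3 with a mean FPKM of at least 5, 6 with DESeq2 (4.86%), 0 with the replicate block (Acadm, adjusted p = 0.0539), 0 with a block for each group and number across tissues (Acadm, adjusted p = 0.0633) and 0 to 4 when 1 replicate was left out, with 0 without light-treated HPC replicate 1 or untreated 5xFAD meninges replicate 1 or 2, and 4 without untreated 5xFAD meninges replicate 4 or light-treated meninges replicate 1. The cause of these changes was not tested. In mLECs, Etfa in light-treated against untreated 5xFAD mice, 1.10 on the log2 scale with no call, ranged from -0.88, without light-treated replicate 2, to 1.57, without light-treated replicate 1.

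Replicate numbers did not pair the libraries within a tissue: deviations of same-numbered libraries from their group means correlated at -0.286 to 0.0883 in 12 pairs of HPC, -0.303 to 0.235 in 9 of meninges and -0.0322 to 0.0117 in 8 of mLECs, so the block is given as an alternative only. Between HPC and meninges, same-numbered libraries of a group correlated at -0.0606 to 0.238 in 10 pairs, with a median of 0.0694. Libraries of a group with different numbers correlated at -0.254 to 0.115 in 30 pairs, with a median of -0.0112. Whether same-numbered libraries share a mouse is not known. The block across tissues and leaving out the HPC libraries rich in choroid plexus markers and the sorted libraries poor in lymphatic markers were chosen after seeing the data. Total counts were lowest in meninges, and the biological coefficient of variation was highest in mLECs.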
